A study of Mus musculus with 75 samples.

Results

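The data compare the colon with the small intestine in enteric glial cells (EGCs) of the myenteric plexus, taken from untreated adult mice that carry an eGFP reporter of glia and are described as WT. Of the 75 RNA-seq libraries in the series, 11 enter this comparison: 5 from colon (3 from males, 2 from females) and 6 from small intestine (3 from males, 3 from females). They are all the libraries labelled as myenteric plexus with no treatment (0 h). All 11 come from mice with this reporter. A library is called here by its region, sex and number, as in colon M1 or small intestine F3, and the labels give no mouse identity for these libraries. Where separate animals are not stated, p-values measure only the spread between these libraries, which may be technical. The way the cells were isolated is not given in the sources used here. A further 3 sets served for comparison: 11 libraries of the submucosal plexus from untreated mice of the same genotype (5 colon, 6 small intestine), 8 myenteric libraries from reporter mice 2 h after an intraperitoneal injection of phosphate-buffered saline (PBS; 4 and 4), and 10 myenteric libraries from Gpr37 wild-type reporter mice 24 h after PBS (4 colon, 6 small intestine).

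Enteric glia are the support cells of the nervous system of the gut and descend from the neural crest. The myenteric plexus lies between the circular and longitudinal muscle layers and drives motility. Its glia wrap enteric neurons and lie beside smooth muscle, interstitial cells of Cajal, fibroblasts, vessels and macrophages, so a preparation of this layer can hold RNA of all of these.

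The total count of a library lay between 3392410 and 9002546 in colon and between 3331701 and 7942779 in small intestine. The difference of means did not pass an exact two-sided permutation test (p = 0.939, adjusted over 3 library measures 0.939, smallest possible p 0.00216). The mitochondrial share of counts was 10.7% ± 4.87 (SD, n = 5) in colon and 15.9% ± 2.51 (SD, n = 6) in small intestine (exact permutation p = 0.0563, adjusted 0.169). The glial label held: S100b, Sox10 and Gfap were detected in all 11 libraries, and the 24 glial identity genes summed to 23833 to 38583 CPM (CPM, TMM-scaled) in colon and 24926 to 45323 CPM in small intestine. Genes of neighbouring cells were present in every library as well; smooth muscle genes alone summed to 11767 to 35911 CPM in colon and 3489 to 18171 CPM in small intestine. In bulk libraries such as these, fewer cells of a type and less RNA per cell cannot be told apart.

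A pair of libraries stood apart. In colon F3 the 24 epithelial genes summed to 6024 CPM against 48.5 to 603 CPM in the other colon libraries, and 17 cell cycle genes summed to 969 CPM against 44.3 to 83.7 CPM. In small intestine M3 the 16 genes of pancreatic acinar cells summed to 135674 CPM against 38.5 to 3266 CPM in the other small intestine libraries. Results are therefore also given without both libraries.

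**Figure D1:**
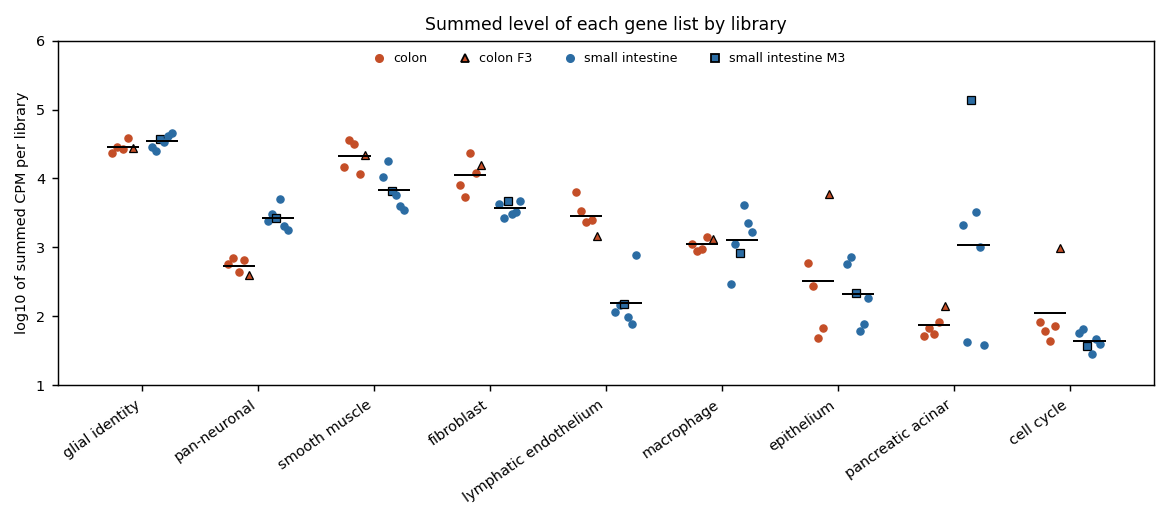
Summed CPM of the members of 9 gene lists in each library (log10 axis, 1 point per library, black bar for the mean of the log values), colon in orange and small intestine in blue. The pan-neuronal sums of the 5 colon libraries (396 to 705 CPM) all lie below those of the 6 small intestine libraries (1809 to 5076 CPM), the lymphatic endothelium sums lie the other way round, and colon F3 (triangle) and small intestine M3 (square) stand out for epithelial, cell cycle and acinar genes.

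Across 14090 genes that passed the count filter, 449 (3.19%) differed between colon and small intestine at an adjusted p under 0.05 (quasi-likelihood test of edgeR, p-values adjusted by Benjamini-Hochberg over all genes). Of these, 234 (1.66%) were higher and 215 (1.53%) lower in colon. The median log2 fold change (colon minus small intestine) over all genes tested was 0.01. For 442 genes (3.14%) the CPM values of the 2 regions did not overlap, with colon above in 166 (1.18%) and small intestine above in 276 (1.96%). Without colon F3 and small intestine M3, 254 genes were called (106 higher, 148 lower), of which 192 were among the 449. Leaving out 1 library at a time gave between 206 calls (without small intestine F1) and 475 (without colon F2); the count also fell by more than 1.5 times without small intestine M3 (286) or F2 (272), and it was 304 without colon F3. Of the 449 genes, 449 had the same sign among females alone and 434 among males alone. The 449 genes were called from these same libraries, so their selection favours the same sign in each sex. This agreement is therefore no separate result. Females alone gave 169 calls and males alone 10. Region by sex, tested as an interaction with the same edgeR model, gave 1 call, with 1155 genes at an unadjusted p under 0.05.

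The Hox genes were among the most clearly separated between the regions. Hox genes encode homeodomain transcription factors that lie in 4 clusters, and genes at the 5′ end of each cluster are active towards the posterior of the embryo. Of 39 Hox genes in the table, 28 passed the filter, and 10 were called against a background of 3.19%: Hoxa9, Hoxa10, Hoxa11, Hoxa13, Hoxd10 and Hoxd11 were higher in colon, and Hoxb5, Hoxc4, Hoxc5 and Hoxc8 were higher in small intestine. All 6 genes higher in colon bear paralogue numbers from 9 to 13, and all 4 genes lower in colon numbers from 4 to 8. The median log2 fold change of the 28 was 0.25, since both directions occurred, and without colon F3 and small intestine M3 there were 5 higher and 3 lower calls.

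The windows of 250 bases before the RefSeq start (GRCm38.p6) of 4 Hox genes higher in colon are shown because these members moved together from 2 clusters. Each is written 5′ to 3′ on the strand of its gene, and capitals mark TTTAT, or its reverse complement ATAAA, the core to which caudal-type and posterior Hox homeodomains are known to bind. The windows are chr6:52240855-52241104 (minus strand) for Hoxa10, chr6:52245811-52246060 (minus) for Hoxa11, chr2:74691641-74691890 (plus) for Hoxd10 and chr2:74679308-74679557 (plus) for Hoxd11.
Hoxa10: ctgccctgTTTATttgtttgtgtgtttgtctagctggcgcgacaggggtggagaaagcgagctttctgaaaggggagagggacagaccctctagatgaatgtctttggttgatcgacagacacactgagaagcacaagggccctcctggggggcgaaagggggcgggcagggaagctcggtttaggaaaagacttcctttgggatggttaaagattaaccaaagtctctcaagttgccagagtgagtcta
Hoxa11: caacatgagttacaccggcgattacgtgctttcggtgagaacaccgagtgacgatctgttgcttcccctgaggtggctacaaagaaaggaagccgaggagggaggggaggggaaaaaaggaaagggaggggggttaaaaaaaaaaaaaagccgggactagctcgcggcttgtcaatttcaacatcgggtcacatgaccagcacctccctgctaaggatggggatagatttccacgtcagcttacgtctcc
Hoxd10: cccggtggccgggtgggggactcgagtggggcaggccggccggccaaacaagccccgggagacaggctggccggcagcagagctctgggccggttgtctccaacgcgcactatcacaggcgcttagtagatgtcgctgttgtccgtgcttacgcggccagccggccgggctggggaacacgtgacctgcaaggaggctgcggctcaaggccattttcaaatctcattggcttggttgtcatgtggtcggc
Hoxd11: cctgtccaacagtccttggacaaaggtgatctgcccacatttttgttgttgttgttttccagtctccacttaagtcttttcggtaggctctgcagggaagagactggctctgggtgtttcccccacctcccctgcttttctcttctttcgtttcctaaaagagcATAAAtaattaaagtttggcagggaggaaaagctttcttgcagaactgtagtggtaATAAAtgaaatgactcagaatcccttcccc
The core occurs once in the Hoxa10 window on the strand of the gene and 2 times in the Hoxd11 window on the opposite strand, and the other 2 windows hold none. RefSeq has a second window for Hoxa10 (chr6:52234940-52235189), which also holds the core once, and for Hoxd11 (chr2:74682073-74682322), which does not hold it; the windows shown are those at the outer end of the annotated gene. RefSeq windows were matched for 7 of the 10 called Hox genes (9 windows, all but Hoxb5, Hoxc5 and Hoxc8), and 3 of these 9 windows hold the core, against 37.3% of all 32851 windows of this length. A match describes the letters of the window and is not a binding site.

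Hoxa10 (chr6:52231197-52240854, GRCm38, GENCODE M21) measured 10.9, 22.7, 92.4, 25.0 and 34.3 CPM in colon M1, M2, M3, F2 and F3, and 0 to 1.72 CPM (median 0) in small intestine. Every colon library was above every small intestine library, of which 5 of 6 were at 0, and the fit gave a log2 fold change of 7.15 (SE 0.88, adjusted p = 0.000135). Its neighbour Hoxa11 (chr6:52242106-52245810) measured 5.44, 12.7, 34.0, 15.1 and 13.5 CPM in the same colon libraries and 0 in all 6 small intestine libraries, so its mean of 16.1 CPM was at least 26.9-fold higher in colon (a floor of 3 counts in each small intestine library; adjusted p = 5.74e-05, edgeR). Hoxa11os, the transcript on the opposite strand (chr6:52244393-52249799) that overlaps Hoxa11, measured 8.48, 20.9, 32.9, 8.18 and 35.2 CPM in colon and at most 0.980 CPM in small intestine (log2 fold change 7.07, SE 0.91, adjusted p = 0.00100); the strand use in counting is not given in the sources used here, so reads of Hoxa11 and Hoxa11os cannot be told apart. Hoxa10, Hoxa11 and Hoxa11os kept their calls in all 11 fits that left out 1 library.

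The HoxD genes followed the same order. Hoxd10 was at 15.9, 16.0, 12.5, 13.7 and 10.3 CPM in the colon libraries, the narrowest spread among the Hox genes named here that were higher in colon, and at 0 in 5 of 6 small intestine libraries. Hoxd10 had a log2 fold change of 6.67 (SE 1.13, adjusted p = 0.00355). Hoxd11 was at 7.18, 0.604, 8.11, 0.818 and 8.23 CPM and was at 0 in all 6 small intestine libraries, at least 8.33-fold higher in colon (adjusted p = 0.0116). Hoxa13, the most 5′ gene of its cluster, was low, at 0.217, 4.84, 3.73, 7.20 and 1.05 CPM in colon and 0 in all 6 small intestine libraries (at least 5.69-fold higher, adjusted p = 0.00867), with 1 colon library under 1 CPM. Hoxa9 was at 5.15 to 19.9 CPM (median 8.40) in colon and at 0 in 5 of 6 small intestine libraries (log2 fold change 5.37, SE 1.25, adjusted p = 0.0219); without small intestine F1 its adjusted p rose above 0.05, and without colon F3 and small intestine M3 it was 0.0534.

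The small intestine side held anterior HoxB and HoxC genes. Hoxb5 was at 16.7, 26.0, 30.0, 22.4 and 26.4 CPM in colon and at 54.6 to 115 CPM (median 66.9) in small intestine, present in both regions without overlap. Hoxb5 had a log2 fold change of -1.64 (SE 0.34, adjusted p = 0.0131). Hoxc8 reached at most 0.302 CPM in colon, where no library had more than 3 counts, and 2.12 to 7.60 CPM (median 3.68) in small intestine, at least 7.78-fold lower in colon (adjusted p = 0.00474). The groups did not overlap for either gene. Hoxc4 was at 0.525 to 4.53 CPM (median 2.39) in colon and 10.5 to 26.9 CPM (median 18.9) in small intestine (log2 fold change -2.97, adjusted p = 0.0219), a call lost without colon M3 and without both colon F3 and small intestine M3 (adjusted p = 0.0760). Hoxc5, whose annotated span contains that of Hoxc8, was at 0.435, 0, 0, 0 and 6.13 CPM in colon and 12.1 to 49.0 CPM (median 19.8) in small intestine (log2 fold change -4.16, adjusted p = 0.0447). Its call was lost in every fit that left out 1 library except the one without colon F3, the only colon library above 1 CPM, and without colon F3 and small intestine M3 its adjusted p was 0.00404.

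**Figure D2:**
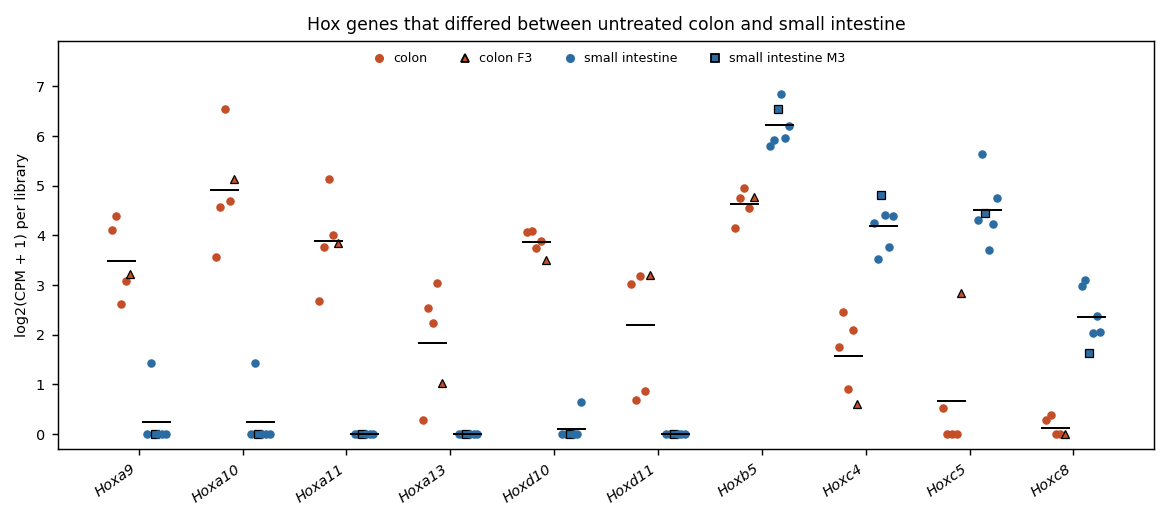
CPM of the 10 called Hox genes on the log2(CPM + 1) scale, 1 point per library with a black bar for the mean, colon in orange (5 libraries) and small intestine in blue (6 libraries). The 6 genes on the left lie at or near 0 in small intestine, and the 4 on the right lie higher in small intestine without overlap.

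Outside the Hox clusters, 5 called genes are described for the size of their fold change. Separate groups were a condition for naming genes in this way, so their separation is no further result. Pitx1, a homeodomain factor of hindlimb and pituitary development, was at 2.61, 9.07, 2.30, 6.22 and 8.93 CPM in colon and at 0 in 5 of 6 small intestine libraries, where no library had more than 3 counts; it was at least 9.72-fold higher in colon (adjusted p = 3.89e-05). F2rl1, which encodes protease-activated receptor 2, measured 41.5, 22.7, 23.1, 18.8 and 29.1 CPM in colon M1, M2, M3, F2 and F3 and 0 to 1.67 CPM (median 1.11) in small intestine. Its lowest colon value was more than 10 times its highest small intestine value, and the fit gave a log2 fold change of 4.82 (SE 0.49, adjusted p = 2.41e-05). Cldn4, a tight junction claudin, was at 10.2, 9.37, 3.73, 2.29 and 34.5 CPM in colon and at 0 in all 6 small intestine libraries (at least 20.1-fold higher, adjusted p = 0.000649). It belongs to the epithelium list and was highest in colon F3, and without colon F3 and small intestine M3 its adjusted p was 0.00170. Of the 24 epithelial genes 16 had a log2 fold change above 0 and 8 below (median 2.24), and Cldn4 alone was called. The share of epithelial RNA in this result was not tested. C1qtnf3, a secreted relative of C1q and TNF, was at 158, 92.2, 277, 251 and 204 CPM in colon and 5.42 to 28.7 CPM (median 13.6) in small intestine. C1qtnf3 had a log2 fold change of 3.66 (SE 0.71, adjusted p = 0.00854). Serinc2, a membrane protein of the serine incorporator family, was at 11.8 to 56.0 CPM (median 26.2) in colon and 0 to 6.86 CPM (median 0.585) in small intestine (log2 fold change 3.90, adjusted p = 0.00867). The call of each of these 5 genes was kept in all 11 fits that left out 1 library.

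Among smaller but even differences, Cd63, a tetraspanin of late endosomes and secreted vesicles, measured 288, 247, 448, 306 and 492 CPM in colon and 146 to 217 CPM (median 158) in small intestine. Cd63 had a log2 fold change of 1.08 (SE 0.21, adjusted p = 0.00854). Cd55, an inhibitor of complement activation on the cell surface, was at 119, 44.1, 92.6, 121 and 88.2 CPM in colon and 8.46 to 29.8 CPM (median 16.2) in small intestine (log2 fold change 2.52, SE 0.29, adjusted p = 5.74e-05). Plpp1, a lipid phosphate phosphatase, was at 428, 374, 502, 385 and 390.5 CPM in colon and 109 to 156 CPM (median 134) in small intestine (log2 fold change 1.65, SE 0.25, adjusted p = 0.00155). None of these 3 genes overlapped between regions, and they are named for their even values, chosen after those values were seen. Without colon F3 and small intestine M3 the adjusted p of Cd63 was 0.0496, that of Cd55 0.000599 and that of Plpp1 0.00576.

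**Figure D3:**
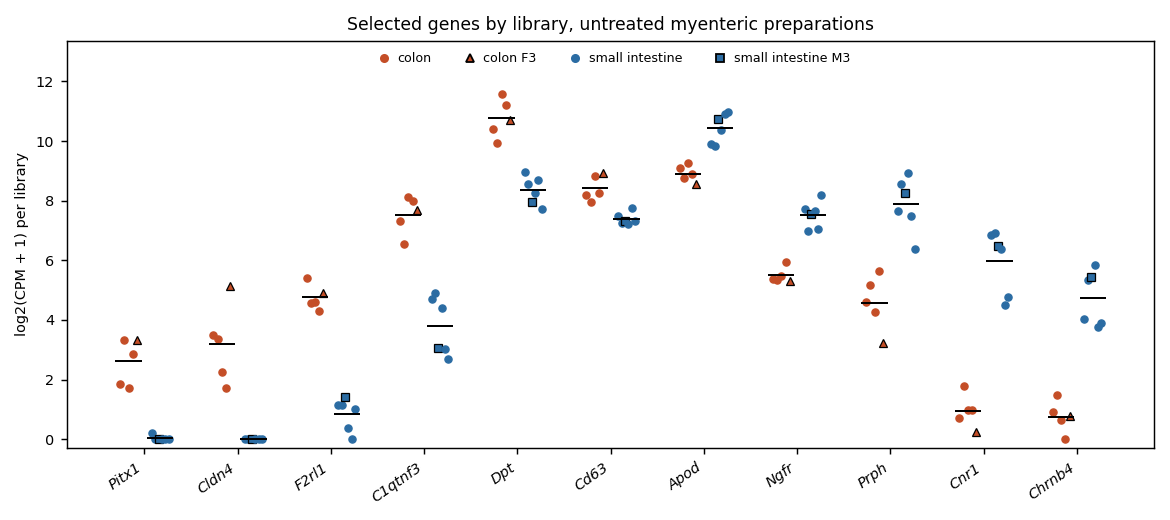
CPM of 11 genes on the log2(CPM + 1) scale, 1 point per library with a black bar for the mean, colon in orange and small intestine in blue. Pitx1, Cldn4, F2rl1, C1qtnf3, Dpt and Cd63 lie higher in colon, and Apod, Ngfr, Prph, Cnr1 and Chrnb4 lie higher in small intestine without overlap.

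Of 24 glial identity genes 1 was higher and 2 were lower in colon, a called share of 12.5% against 3.19% of all genes, and without colon F3 and small intestine M3 only the higher one (Gja1) was called. Their median log2 fold change was -0.50, against 0.01 over all genes. Of the 24 genes 19 were below 0 and 5 above, against 6842 below and 7177 above among all 14090 genes tested. Sox10, the transcription factor that specifies neural crest glia, had a log2 fold change of -0.65 (SE 0.56, adjusted p = 0.639), S100b a log2 fold change of -0.20 (SE 0.39, adjusted p = 0.870) and Gfap a log2 fold change of 0.35 (SE 0.41, adjusted p = 0.766). Values of all 3 genes overlapped between the regions. Gpr37, the receptor that the series studies by knockout, was at 3.70, 0.302, 10.6, 11.1 and 0.525 CPM in colon and 7.71 to 52.5 CPM (median 15.9) in small intestine, and its log2 fold change of -2.08 (SE 1.11) did not pass the test (adjusted p = 0.371, edgeR).

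Ngfr, the low-affinity neurotrophin receptor p75, was at 40.7, 39.9, 43.5, 60.4 and 38.9 CPM in colon and 126 to 288 CPM (median 194) in small intestine. The groups did not overlap, and the log2 fold change was -2.09 (SE 0.50, adjusted p = 0.0263); the call was lost in 4 of 11 fits (without colon M1, M3 or F3, or small intestine F1), and the adjusted p was 0.0673 without colon F3 and small intestine M3. Fabp7, a fatty acid-binding protein of immature and satellite glia, was at 105, 127, 167, 216 and 106 CPM in colon and 305 to 431 CPM (median 347) in small intestine, again without overlap (log2 fold change -1.29, SE 0.35, adjusted p = 0.0466), but kept its call only in the fit without colon F2 among the 11. Gja1, the gap junction protein connexin 43 that couples enteric glia, was at 304, 196, 524, 300.4 and 111 CPM in colon and 41.2 to 159 CPM (median 69.2) in small intestine. Gja1 had a log2 fold change of 1.90 (SE 0.47, adjusted p = 0.0306). Only colon F3 lay within the small intestine range, and the Gja1 call was lost without colon M3 or without small intestine M2, M3, F1, F2 or F3, while without both outlying libraries its adjusted p was 0.0454. Apod, a secreted lipocalin that binds lipids, was at 544, 428, 614, 471 and 373 CPM in colon and 909 to 1991 CPM (median 1513) in small intestine. It was higher in every small intestine library than in any colon library. Apod had a log2 fold change of -1.59 (SE 0.31, adjusted p = 0.00854), and held in all 11 fits.

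Among 16 tested genes of glial signalling and support, P2ry1, a receptor for ADP, was the 1 called gene (6.25%, against 3.19% of all genes). It was at 50.9, 56.8, 263, 77.1 and 117 CPM in colon and 2.71 to 29.1 CPM (median 15.8) in small intestine. P2ry1 had a log2 fold change of 2.86 (SE 0.56, adjusted p = 0.00867). Of 19 reactive glia genes 2 were higher in colon and none lower, against 1.66% and 1.53% of all genes (median 0.66): Serping1, the C1 esterase inhibitor, at 1062, 605, 1847, 1183 and 1647 CPM against 304 to 511 CPM (median 409) (log2 fold change 1.64, SE 0.34, adjusted p = 0.0119), and Cp, the ferroxidase ceruloplasmin, at 451, 215, 138, 78.9 and 72.0 CPM against 29.3 to 127 CPM (median 41.6) (log2 fold change 1.81, adjusted p = 0.0383). Serping1 did not overlap between regions and Cp did; the Cp call was lost without both outlying libraries (adjusted p = 0.0543) and in 7 of 11 fits (all but those without colon M3, F2 or F3 or small intestine F3). Serping1 was highest in colon M3 and F3, as were the summed fibroblast genes (23277 and 15687 CPM, against 2688 to 4732 CPM in small intestine). Cp was highest in colon M1, as were the summed lymphatic endothelial (6352 CPM) and mesothelial genes (1937 CPM). The part of these cells in both results was not tested. None of the 11 myelin genes tested was called (median -0.64), nor any of 12 immediate early genes (median -0.16) or 13 interferon response genes (median -0.01).

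Of 20 pan-neuronal genes 11 were lower in colon and none was higher, against 1.53% of all genes lower; 19 of 20 log2 fold changes were below 0, and their median was -2.58. The genes summed to 396 to 705 CPM in colon and 1809 to 5076 CPM in small intestine. Glial identity sums, given above, overlapped between the regions. Prph, the intermediate filament peripherin of peripheral and enteric neurons, was at 23.1, 35.1, 18.2, 48.9 and 8.40 CPM in colon and 82.5 to 482 CPM (median 253) in small intestine. Prph had a log2 fold change of -3.34 (SE 0.53, adjusted p = 0.00199). Snap25, a component of the vesicle fusion machinery, was at 48.9, 64.4, 12.4, 7.04 and 13.3 CPM against 123 to 466 CPM (median 216) (log2 fold change -3.05, SE 0.53, adjusted p = 0.00432), and Stmn3, a microtubule regulator, at 34.4, 25.1, 14.6, 20.0 and 15.8 CPM against 65.9 to 273 CPM (median 139.8) (log2 fold change -2.78, SE 0.44, adjusted p = 0.00171). No colon library reached any small intestine library for these 3 genes, and each was called in all 11 fits. The secretory granule genes Scg2 and Chgb were also lower. Scg2 was at 3.04, 34.5, 0, 16.7 and 7.35 CPM in colon and 325 to 884 CPM (median 381) in small intestine (log2 fold change -5.25, SE 1.16, adjusted p = 0.0167); Chgb had a log2 fold change of -4.78 (SE 1.27, adjusted p = 0.0414), a call kept only in the fits without small intestine M1 or colon F3 and missed without both outlying libraries (adjusted p = 0.0546). Without colon F3 and small intestine M3, 9 of the 20 genes were lower and the median was -2.63.

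Of 18 transmitter and neuropeptide genes tested, 6 were lower in colon and none higher (median -3.27), against 1.53% of all genes lower. They were the cholinergic genes Slc18a3, Slc5a7 and Ache (the vesicular acetylcholine transporter, the choline transporter and acetylcholinesterase) and the peptide genes Npy, Calcb and Cartpt. Without colon F3 and small intestine M3, 4 were called, and Slc18a3 (adjusted p = 0.0538) and Cartpt (0.0930) were not; Cartpt was also lost in 5 of the 11 fits that left out 1 library (without colon M1, M3, F2 or F3, or small intestine F1), and Ache and Slc5a7 without small intestine F1. Npy, which encodes neuropeptide Y, was at 0, 3.02, 0, 0.164 and 0 CPM in colon, with 3 libraries at 0, and at 3.68 to 42.9 CPM (median 25.0) in small intestine (log2 fold change -5.56, SE 1.09, adjusted p = 0.00860). Slc18a3, a single-exon gene within Chat, was at 4.35, 0, 0, 2.13 and 0 CPM in colon and 33.3 to 66.6 CPM (median 45.9) in small intestine (log2 fold change -5.14, SE 1.16, adjusted p = 0.0227), a call missed without small intestine F1. Neither gene overlapped between regions.

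Of 10 ligand-gated channel genes tested 3 were lower in colon (median -3.74): the nicotinic receptor subunits Chrna3 and Chrnb4, which assemble with each other in autonomic ganglia, and the serotonin receptor subunit Htr3a. The share of all genes lower was 1.53%. Only Chrnb4 was called without colon F3 and small intestine M3 (adjusted p 0.0538 for Chrna3 and 0.0708 for Htr3a), and the Htr3a call was lost in 5 of 11 fits (without colon M1, M3 or F3, or small intestine M2 or F1). Chrnb4 was at 0.870, 1.81, 0.548, 0 and 0.700 CPM in colon and 12.7 to 57.0 CPM (median 27.7) in small intestine. Chrnb4 had a log2 fold change of -5.31 (SE 0.82, adjusted p = 0.00155). Chrna3 was at 0, 5.44, 0.329, 0.654 and 0.350 CPM in colon and 49.8 to 231 CPM (median 68.8) in small intestine. Chrna3 had a log2 fold change of -6.24 (SE 1.43, adjusted p = 0.0204), and was called in all fits but the one without small intestine F1. Every small intestine library lay above every colon library for both subunits. Among 10 G protein-coupled receptor genes, Cnr1, the cannabinoid receptor CB1, was the 1 called gene. It was at 0.652, 2.42, 0.986, 0.982 and 0.175 CPM in colon and 21.8 to 119 CPM (median 84.9) in small intestine. Cnr1 had a log2 fold change of -6.21 (SE 0.90, adjusted p = 0.00100). The Cnr1 and Chrnb4 calls were kept in all 11 fits, and Cnr1 was also called among males alone and among females alone. None of 13 voltage-gated channel genes was called (median -1.10). Without colon F3 and small intestine M3, 1 of these 13 and 2 of the 10 G protein-coupled receptor genes were called lower in colon. Of the 14083 genes tested in both fits 147 were.

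Other genes lower in colon, named for the size of their difference, were Slc7a14, a lysosomal cationic amino acid carrier (log2 fold change -5.76, SE 1.12, adjusted p = 0.0116), and Pnmal1, a gene of the paraneoplastic antigen family (log2 fold change -6.06, SE 1.30, adjusted p = 0.0147). Both calls were kept in all 11 fits. Slc10a4, a carrier on synaptic vesicles, and Entpd3, an ectonucleotidase, were called in the full fit (adjusted p = 0.0419 and 0.0447) but in 2 and 1 of the 11 fits (Slc10a4 without colon M2 or small intestine M1, Entpd3 without colon F2). Neither was called without both colon F3 and small intestine M3 (edgeR adjusted p = 0.0990 and 0.109). Every small intestine library lay above every colon library for all 4 genes, which was a condition for naming them and no further result. Alcam, a cell adhesion molecule chosen after its values were seen, was at 86.3, 145, 119, 91.8 and 53.8 CPM in colon and 215 to 502 CPM (median 336) in small intestine (log2 fold change -1.75, SE 0.33, adjusted p = 0.00798).

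Of 16 genes for GDNF, endothelin and neurotrophin factors and their receptors, Ret, Ntrk2 and Nrg1 were lower and Kit was higher in colon, a called share of 25% against 3.19% of all genes. Ret, the GDNF receptor tyrosine kinase carried by enteric neurons and their progenitors, was at 1.52, 10.3, 0.876, 1.47 and 0.175 CPM in colon and 5.34 to 68.0 CPM (median 34.2) in small intestine. The groups overlapped through colon M2, and the call (log2 fold change -3.51, SE 0.85, adjusted p = 0.0261) was lost without colon M1, colon M3 or small intestine F1. Nrg1, the neuregulin that signals to glial ErbB receptors, had a log2 fold change of -3.29 (SE 0.88, adjusted p = 0.0426) but was called in only 2 of the 11 fits (without colon F2 or small intestine F3). Ntrk2, the BDNF receptor, was low in both regions, at 0 to 0.350 CPM (median 0.217) in colon and 0.143 to 5.56 CPM (median 3.59) in small intestine, at least 5.35-fold lower in colon (adjusted p = 0.0349), and was called in 3 of the 11 fits (without small intestine M1, M2 or F3). Tlx2, a homeobox gene of enteric neurons and the 1 called gene of 26 regional transcription factors (3.85%, near the 3.19% of all genes), had a log2 fold change of -3.69 (SE 0.93, adjusted p = 0.0331) and was called in 4 of 11 fits (without colon M1 or small intestine M1, F2 or F3). None of these 4 lower calls was kept without both colon F3 and small intestine M3, where the adjusted p was 0.0684 for Ret, 0.124 for Nrg1, 0.0725 for Ntrk2 and 0.130 for Tlx2. The pan-neuronal sums given above were also lower in every colon library. Ntrk2 had at most 25 counts in a library (25 in small intestine F2, 24 in M3 and 23 in M1). Its order among libraries therefore cannot be read against those sums. The part of neuronal RNA in these results was not tested.

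**Figure D4:**
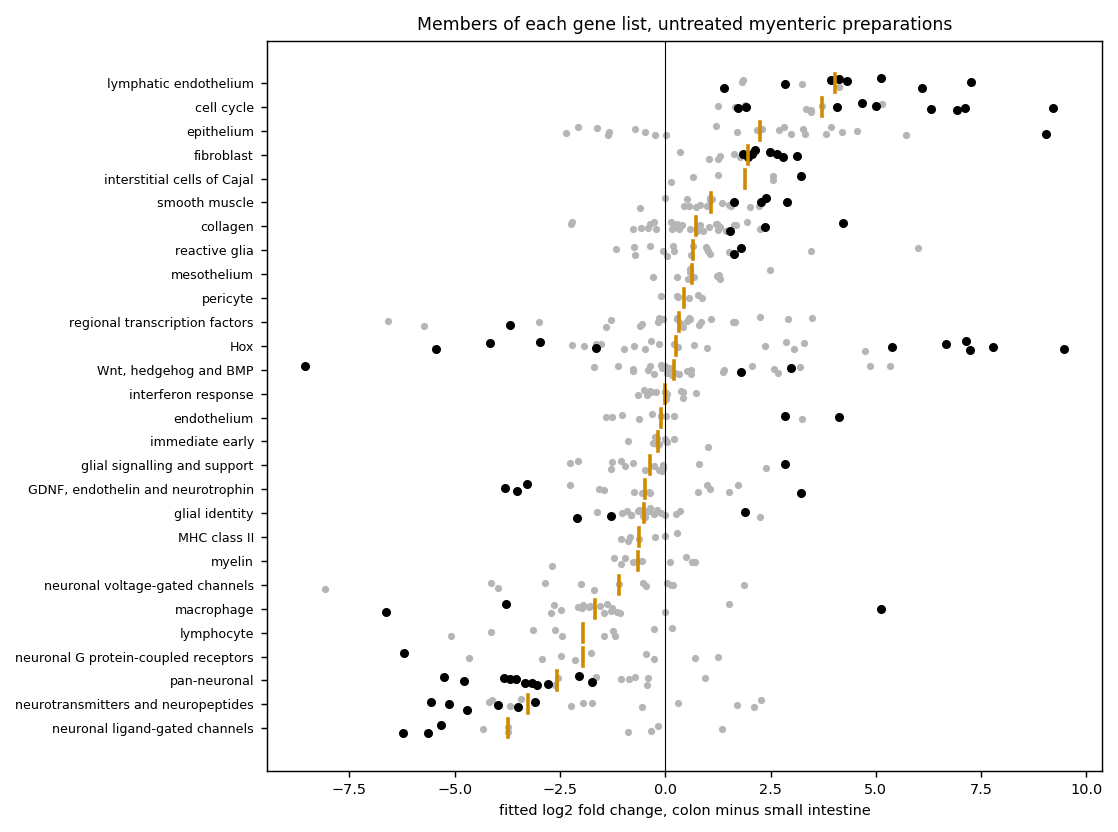
Fitted log2 fold change (colon minus small intestine) of each tested member of 28 gene lists, 1 point per gene, black where the edgeR adjusted p was under 0.05 and grey elsewhere, with an orange bar at the median of the list. The 4 neuronal lists of channels, transmitters, pan-neuronal genes and G protein-coupled receptors lie lowest by their medians, and lymphatic endothelium, cell cycle, epithelium and fibroblast lie highest; points beyond about 6 in either direction belong mostly to genes at or near 0 in 1 region. Setting each gene with 3 or fewer counts in every library of a region at its bound (0 where both regions are that low) left the medians of 23 of the 29 lists as they were and moved those of lymphocyte genes to 0, epithelium to 1.94, lymphatic endothelium to 3.89, cell cycle to 3.35, collagen to 0.59 and pancreatic acinar genes to -10.30. The pancreatic acinar list (fitted median -13.47) is not drawn.

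Of 15 fibroblast genes, 8 were higher in colon and none was lower, against 1.66% of all genes higher, and all 15 log2 fold changes were above 0 (median 1.98); the sums were 5391 to 23277 CPM in colon and 2688 to 4732 CPM in small intestine. Dpt, the matrix protein dermatopontin, was at 1362, 989, 3042, 2375 and 1681 CPM in colon and 212 to 493 CPM (median 338) in small intestine (log2 fold change 2.48, SE 0.48, adjusted p = 0.00854). Dcn, the proteoglycan decorin, was at 2689.6, 901, 4026, 1981 and 2686 CPM in colon and 437 to 949 CPM (median 510.3) in small intestine (log2 fold change 2.07, SE 0.40, adjusted p = 0.00854). Fbln1, the matrix glycoprotein fibulin-1, was at 283, 238, 3424, 1153 and 2364 CPM in colon and 90.7 to 229.8 CPM (median 173) in small intestine (log2 fold change 3.14, SE 0.61, adjusted p = 0.00854). Dpt and Fbln1 did not overlap between regions, although Fbln1 in colon M1 and M2 lay just above the small intestine range, and Dcn overlapped through colon M2. All 3 calls were kept in all 11 fits and without both outlying libraries. Lum, the proteoglycan lumican, ranged from 312 to 2787 CPM (median 1656) in colon and from 174 to 506 CPM (median 327) in small intestine. Lum had a log2 fold change of 2.13 (SE 0.52, adjusted p = 0.0270), a call missed in 5 of 11 fits (without colon M3 or F3, or small intestine M2, M3 or F2). Without colon F3 and small intestine M3, 3 of the 15 genes were higher.

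Of 33 collagen genes 3 were higher in colon, namely Col6a3, Col6a5 and Col23a1, and none was lower (median 0.72), against 1.66% of all genes higher. Only Col6a3 was called without colon F3 and small intestine M3 (adjusted p = 0.0457, against 0.117 for Col6a5 and 0.0537 for Col23a1). Col6a5 was called in 3 of the 11 fits that left out 1 library (without colon M1, M2 or F2), Col23a1 in 5 (without colon M1, M3, F2 or F3, or small intestine M2), and the Col6a3 call was lost without colon M3 or small intestine F1. Bgn, the proteoglycan biglycan, had a log2 fold change of 1.59 (SE 0.43, adjusted p = 0.0434) and was called in 4 of 11 fits (without colon M1, M2 or F2, or small intestine F3). Its call was lost without colon F3 and small intestine M3 (edgeR adjusted p = 0.130). Fgl2, a fibrinogen-like protein with prothrombinase activity, was at 3044, 1487, 1125, 1354 and 382 CPM in colon and 168 to 380.4 CPM (median 215) in small intestine. Fgl2 had a log2 fold change of 2.65 (SE 0.40, adjusted p = 0.00155). Its regions did not overlap, although colon F3 and small intestine F3 lay close together (382 and 380.4 CPM), and its call was kept in all 11 fits. Bmp4, a ligand that acts on enteric neurons and glia during development, was at 24.8, 22.4, 80.0, 32.1 and 81.4 CPM in colon and 9.42 to 19.0 CPM (median 13.7) in small intestine (log2 fold change 1.79, SE 0.38, adjusted p = 0.0131); without both outlying libraries its adjusted p was 0.0597. In the Wnt, hedgehog and BMP list of 30 tested genes, Bmp4 and Gli1 were higher and Rspo2 was lower (10%, against 3.19% of all genes called), and without both outlying libraries Rspo2 alone was called. Rspo2, a secreted amplifier of Wnt signalling, was at 0 in all 5 colon libraries and at 0.303 to 29.1 CPM (median 6.06) in small intestine, at least 14.8-fold lower in colon (adjusted p = 0.0181). Gli1, a target and effector of hedgehog signalling, was low, at 0.438 to 3.48 CPM (median 1.15) in colon and at most 0.463 CPM in small intestine, and its call (adjusted p = 0.0357) was kept in 4 of 11 fits (without colon M2, M3 or F2, or small intestine M1) and lost without both outlying libraries (adjusted p = 0.114).

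Of 20 smooth muscle genes 4 were higher in colon and none lower, against 1.66% of all genes higher (median 1.09). Actg2, the gamma actin of visceral smooth muscle, was at 1702, 5611, 5720.3, 2036 and 4489.5 CPM in colon and 298 to 1750.2 CPM (median 628) in small intestine. Actg2 had a log2 fold change of 2.27 (SE 0.59, adjusted p = 0.0396). Cnn1, calponin, was at 1004, 2794, 2403, 965 and 1557 CPM in colon and 79.9 to 551 CPM (median 193) in small intestine. Cnn1 had a log2 fold change of 2.90 (SE 0.71, adjusted p = 0.0277). Tagln and Smtn, which encode transgelin and smoothelin, had log2 fold changes of 2.38 (adjusted p = 0.0396) and 1.64 (adjusted p = 0.0123). The ranges of Actg2 and Smtn overlapped between the regions and those of Cnn1 and Tagln did not. Smtn alone of these 4 was called in all 11 fits and without both outlying libraries (adjusted p = 0.0409), where Actg2 had 0.122, Cnn1 0.0756 and Tagln 0.0965; Actg2 and Tagln were each called in 3 of 11 fits (Actg2 without colon M1 or F2 or small intestine M2, Tagln without colon F2 or F3 or small intestine M2), and the Cnn1 call was lost without colon M3 or small intestine M3, F1, F2 or F3. Kit, the receptor that defines interstitial cells of Cajal, was at 39.1, 42.6, 308, 133 and 79.7 CPM in colon and 0.303 to 26.9 CPM (median 15.0) in small intestine, without overlap (log2 fold change 3.23, SE 0.76, adjusted p = 0.0225); the call was lost without colon M3 or small intestine F1, and the other 5 genes of that list gave no call (median of the 6 1.90). The share of smooth muscle, fibroblast or interstitial cell RNA in these results was not tested.

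The list of 12 lymphatic endothelial genes was drawn up after the values were seen, so its count is a description. In the full fit 8 were called higher in colon, against 1.66% of all genes, none lower, and the median was 4.03. Without both outlying libraries 6 of the 12 were called higher, not all of them among the 8. Ackr2 (edgeR adjusted p = 0.0538), Prox1 (0.0925) and Flt4 (0.0794) were not called there. The genes summed to 6352, 3393, 2363, 2463 and 1456 CPM in colon M1, M2, M3, F2 and F3 and to 75.9 to 777 CPM in small intestine, where F3 was the highest. Ccl21a, a chemokine that draws dendritic cells and lymphocytes into lymphatics and that has near-identical copies in the mouse genome, so that its reads may be shared with them, was at 2807, 1211, 591, 913 and 721 CPM in colon and 0.890 to 63.5 CPM (median 7.68) in small intestine. Ccl21a had a log2 fold change of 6.10 (SE 0.88, adjusted p = 0.00100). Lyve1, a hyaluronan receptor of lymphatic endothelium and of some macrophages, was at 732, 705, 492, 544 and 265 CPM in colon and 0 to 47.7 CPM (median 10.6) in small intestine. Lyve1 had a log2 fold change of 5.13 (SE 0.83, adjusted p = 0.00241). The lowest colon library exceeded the highest small intestine library for both genes. Ackr2, a scavenging chemokine receptor, and Prox1, the transcription factor that specifies lymphatic fate, had a log2 fold change of 4.32 (SE 1.08, adjusted p = 0.0313) and a log2 fold change of 4.12 (SE 1.14, adjusted p = 0.0491). The Prox1 call was kept only in the fit without small intestine F3 among the 11, and that of Ackr2 in 7 (lost without colon M1 or small intestine M3, F1 or F2). Flt4, the VEGF-C receptor, was at 282, 209, 139, 86.1 and 59.9 CPM in colon and 3.10 to 80.9 CPM (median 7.51) in small intestine, where F3 alone reached into the colon range (log2 fold change 2.84, SE 0.78, adjusted p = 0.0466). It was called only without colon F2 or F3 or without small intestine F3. Reln, the secreted glycoprotein reelin, which lymphatic endothelium also makes, was at 137, 49.9, 109, 52.4 and 40.6 CPM in colon and 0.282 to 12.9 CPM (median 4.07) in small intestine. Reln had a log2 fold change of 3.95 (SE 0.69, adjusted p = 0.00474). Of the 11 general endothelial genes tested only Prox1 and Flt4, which both lists hold, were called (median -0.10), and none was called without both outlying libraries. The part of lymphatic RNA in these results was not tested.

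Of 20 macrophage genes, Cd163 and Cd4 were lower in colon and Lyve1 was higher, a called share of 15% against 3.19% of all genes, and the median was -1.66. Cd4, which mouse macrophages of the gut wall as well as helper T cells can carry, was at 0 in 4 of 5 colon libraries and at 2.27 to 19.3 CPM (median 6.31) in small intestine. No colon library had more than 3 counts, so it was at least 16.5-fold lower in colon (adjusted p = 0.00292), and it was called in all 11 fits. Cd163, a haemoglobin scavenger receptor of resident macrophages, was at 0, 0, 2.30, 0.164 and 4.03 CPM in colon and 0 to 33.2 CPM (median 24.7) in small intestine, where M1 was at 0 (log2 fold change -3.78, SE 0.96, adjusted p = 0.0346); it was called in 4 of 11 fits (without small intestine M1, M3 or F3 or colon F3). The summed macrophage genes overlapped, at 894 to 1394 CPM in colon and 289 to 4157 CPM in small intestine. None of 7 MHC class II genes (median -0.62) or 10 lymphocyte genes (median -1.95) was called, and none of 10 mesothelial or 6 pericyte genes.

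Several of the fitted differences that were most negative belonged to pancreatic digestive enzymes. The 16 acinar genes summed to 2085, 42.2, 135674, 3266, 1023 and 38.5 CPM in small intestine M1, M2, M3, F1, F2 and F3 and to 51.3 to 139 CPM in colon. M3 was by far the highest, M1, F1 and F2 lay above the colon range as well, and M2 and F3 lay below it. Pnlip, pancreatic lipase, was at 73.4 CPM in small intestine M1, 22791 in M3, 545 in F1, 100.1 in F2 and 0 in M2, F3 and all 5 colon libraries. Cela2a, a pancreatic elastase, was at 25017 CPM in small intestine M3 and at 0 to 628 CPM in the other 5. Of the 16 acinar genes, a list drawn up after the values were seen, 14 were called lower in colon in the full fit (1.53% of all genes were) and 2 (Clps and Reg1) without colon F3 and small intestine M3. Their fitted median was -13.47 in the full fit and -10.09 without those libraries; 8 of the 16 were at 0 in every colon library, so neither value is a bound. Cpb1, Clps, Pnliprp1 and Reg1 were called in all 11 fits that left out 1 library. At 24 h after PBS the same 16 genes had the opposite sign (median 11.18, all 16 above 0), and at 2 h the same sign (median -11.70). Of 17 cell cycle genes, also listed after the values were seen, 9 were higher in colon in the full fit (1.66% of all genes were) and 2 without both outlying libraries, where the median moved from 3.72 to 0.92. The median of the 24 epithelial genes changed sign, from 2.24 to -1.16.

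The regional difference in the myenteric plexus was then set against that in the submucosal plexus of untreated mice by an interaction contrast in the same edgeR fit. It was called for 168 of 14090 genes (1.19%). The myenteric log2 fold change was the higher one for 59 (0.419%) and the lower one for 109 (0.774%). Apod, lower in colon in the myenteric plexus, had a submucosal log2 fold change of 1.21 (adjusted p of the difference 0.00386). Chrnb4 had a submucosal value of 2.10 (difference 0.00214) and Ngfr of 0.86 (difference 0.0400), so that the fitted values of all 3 genes had opposite signs in the 2 plexuses. The submucosal difference itself was called for Apod (adjusted p = 0.0187) and not for Chrnb4 (0.0818) or Ngfr (0.376). F2rl1 had a submucosal log2 fold change of 1.08 (adjusted p of the difference 0.00640), Reln -0.56 (0.0201), Fgl2 0.20 (0.0329) and Cldn4 -0.26 (0.00437). The median of the 20 pan-neuronal genes was -0.40 in the submucosal comparison, and the difference between plexuses was called for 2 of them. None of the 28 Hox genes was called for a difference between plexuses; Hoxa10 was at least 74.8-fold higher in submucosal colon (difference 0.452), and Cd63 had a submucosal log2 fold change of 1.30 (difference 0.801). A difference that misses the threshold does not show that the plexuses were alike.

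The same contrast in other mice, 2 h after PBS, gave 29 calls among 13107 genes (0.221%; 11 or 0.0839% higher and 18 or 0.137% lower in colon). The contrast 24 h after PBS in Gpr37 wild-type mice gave 21 among 14883 (0.141%; 14 or 0.0941% higher and 7 or 0.047% lower). At 24 h the labels give mouse numbers that pair the regions, and with the mouse as a block 6 genes were called, of which 4 (Lyve1, Cp, Lcn2 and Lbp) were among the 21. None of these libraries is shared with the untreated comparison. Of the 234 genes higher in untreated colon, 183 were tested at 2 h, where 164 (89.6%) had the same sign, and 231 at 24 h, where 183 (79.2%) did. Of the 215 lower genes, 195 of 199 tested (98%) had the same sign at 2 h and 182 of 212 (85.8%) at 24 h. Over all genes tested in both, the same-sign share was 63.8% at 2 h and 61.3% at 24 h. Cd63, Hoxa10, Hoxa11 and Hoxa11os were called in all 3 experiments without the mouse as a block, and none of the 4 was called at 24 h with it. At 2 h no gene was called without small intestine M2. Cd63 had log2 fold changes of 1.08 (adjusted p = 0.0284) at 2 h and 1.31 (adjusted p = 0.00239, with the block 1.14 and 0.0551) at 24 h. Hoxa10 was at least 68.0-fold higher in colon at 2 h (adjusted p = 0.0121) and had a log2 fold change of 6.52 at 24 h (adjusted p = 0.0306, with the block 7.88 and 0.131). Hoxa11 had a 24 h log2 fold change of 7.24 without the block and 8.78 with it (adjusted p = 0.0310 and 0.158). Hoxa11os, with no more than 3 counts in any small intestine library, was at least 91.6-fold higher in colon at 24 h (adjusted p = 0.000475, with the block 0.0551). Lyve1 was called at 24 h without and with the block (log2 fold change 4.69, adjusted p = 0.0242 and 0.00481) and not at 2 h (4.44, 0.0807). Cp was also called at 24 h both ways (log2 fold change 2.14, adjusted p = 0.0336 and 0.0276). Fgl2 was called at 24 h without the block only (log2 fold change 1.94, adjusted p = 0.0469, with the block 0.267) and not at 2 h (2.09, 0.0565). Ngfr was called at 2 h (-2.77, 0.0304) and not at 24 h (-1.12, 0.843), and so were Plpp1 (1.70, 0.0439) and Scg2 (-4.09, 0.0332). Of the 5 genes described above after the Hox genes, none was called in either PBS set. F2rl1 had log2 fold changes of 1.14 at 2 h (adjusted p = 0.970) and 1.47 at 24 h (1.00), against 4.82 in untreated mice. Pitx1 was at 0 in all small intestine libraries at 2 h, with a lower bound of 8.34-fold (adjusted p = 0.105) and had a log2 fold change of 1.54 at 24 h (1.00). Cldn4 did not pass the count filter at 2 h and had the opposite sign at 24 h (-0.50, adjusted p = 1.00). C1qtnf3 was at 2.51 (0.246) and 3.94 (0.201), and Serinc2 at 2.77 (0.694) and 1.62 (1.00).

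The gene lists were followed in the same fits, without a block. Of all genes tested there and in untreated mice, 6561 of 12827 were above 0 and 6258 below 0 at 2 h, and 6561 of 13811 were above 0 and 7245 below 0 at 24 h. The 15 fibroblast genes were all above 0 at 2 h (median 1.34) and at 24 h (median 1.30), and none was called at either time. The pan-neuronal genes were below 0 in 20 of 20 at 2 h (median -2.68) and in 19 of 20 at 24 h (median -1.29), with 3 called lower at 2 h and none at 24 h. Lymphatic genes were above 0 in 11 of 11 tested at 2 h (median 4.24) and in 12 of 12 at 24 h (median 3.73), with none called at 2 h and 1 (Lyve1) at 24 h. Smooth muscle genes had a median of 1.59 at 2 h and of -0.15 at 24 h, and mesothelial genes, at 0.64 in untreated mice, had medians of -4.31 and -4.94.

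**Figure D5:**
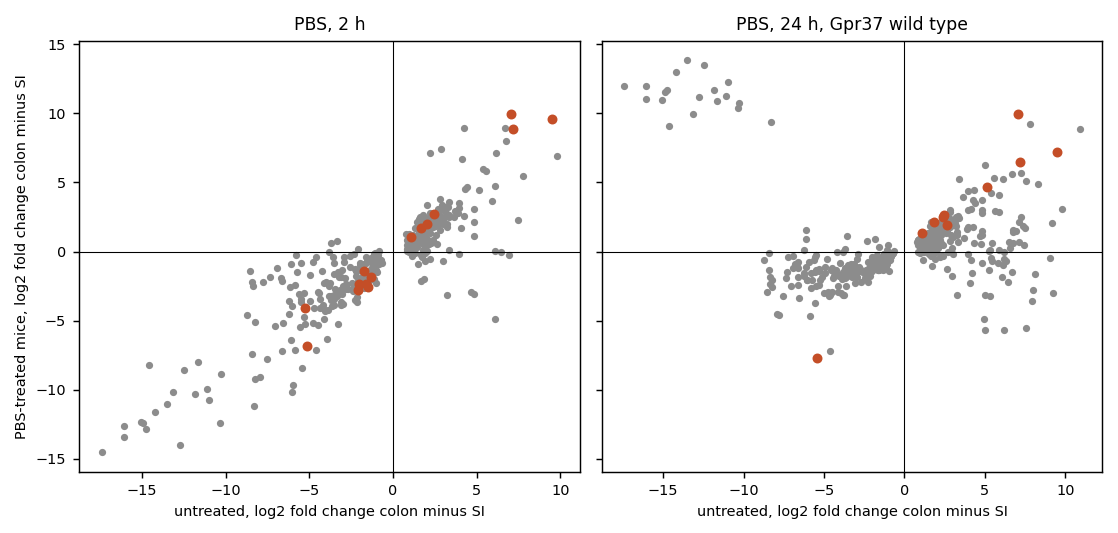
Log2 fold change (colon minus small intestine) of the genes called in untreated mice, against the same contrast in mice 2 h (left, 382 genes) and 24 h (right, 443 genes) after PBS, 1 point per gene, with genes also called there (adjusted p under 0.05) larger and in orange. Most points fall in the lower left and upper right quadrants, and the group at the upper left of the 24 h panel is 19 genes, 14 of them in the pancreatic acinar list.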

How the data were processed

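RNA was made into libraries by the Smart-seq2 protocol after an RNeasy Plus Micro extraction, per the labels' protocols. The deposited values are raw read counts per gene symbol, with no normalization by the authors. Per the submitters' processing notes, Trim Galore 0.4.4, STAR 2.5.3, DESeq2 and the build GRCm38 were used; the counting tool, annotation and use of strand are not given in the sources used here. Groups came from the labels' descriptions. Members and gene lists were chosen with earlier results of these data known.

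The 22 untreated libraries were fitted together with edgeR 4.0.16 (R 4.3.3): TMM factors, filterByExpr by group, 1 coefficient for each of 4 groups, glmQLFit and glmQLFTest, two-sided, Benjamini-Hochberg over all genes tested, threshold 0.05. CPM are counts scaled by library size and TMM factor (edgeR's cpm function), and SE is the absolute log2 fold change over the square root of F. The 2 h and 24 h tables were each fitted on their own; 24 h symbols that had become dates were left out. The pipeline was tested on simulated data. Genes named were, per direction, the 12 called genes with the largest fold change (average log2 CPM of at least 3, separate groups, no predicted genes), the 8 with the highest mean CPM, up to 6 called members per list, and Gpr37, Sox10, S100b and Gfap (not every gene of the rule is described, and 1 is not reported here); Cd63, Cd55, Plpp1, Alcam and 4 Hox genes (Hoxa9, Hoxb5, Hoxc4, Hoxc5) fall outside this rule. A fold against a region with 3 or fewer counts in every library is a lower bound against that floor, which covers counting error only; 3 counts were 0.581 CPM on average in colon and 0.599 in small intestine. Positions are from GENCODE M21 (GRCm38), which gave 1 position for 14032 of 14090 symbols. Fgl2, Cp, Tagln, Mfap4, Gli1, Plpp1, Prox1 and S100b overlap a gene on the other strand, Slc18a3 lies within Chat and Cela2a overlaps Casp9 and Ctrc, so shared reads cannot be told apart. Same-numbered libraries at 24 h come from 1 mouse by the labels' mouse numbers; the correlation of their deviations was 0.0243 to 0.157 over 4 pairs. Alternatives were RLE size factors, DESeq2 1.42.0, no filter, sex as a covariate, the replicate label as a block, the 2 groups alone and each library left out.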

Additional observations from a re-analysis of the deposited data

Results flagged for a closer look

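Each gene named in the report was checked for a library far from the others of its region on the log2(CPM + 1) scale (gap to the nearest value over the whole range, Dixon's test), as were the summed gene lists and library measures. Of 199 sets of values 16 (8.04%) held such a library. The rate of about 1 in 20 by chance holds for normal values, so this share cannot be set against it. Where every library of a region but 1 is at 0, a flag is certain. Small intestine M2 stood alone above 0 for Hoxa9 (1.72 CPM), Hoxa10 (1.72 CPM) and Hoxa11os (0.980 CPM), and small intestine F3 for Hoxd10 (0.571 CPM). Colon F3 was high for Hoxc5 (6.13 CPM) and for the summed cell cycle genes (969 CPM). Small intestine F1 was high for Chrna3 (231 CPM), Scg2 (884 CPM) and Slc10a4 (113 CPM), and it also had the highest pan-neuronal sum (5076 CPM). Among colon libraries, M2 was high for Chrna3 (5.44 CPM), Npy (3.02 CPM) and Slc10a4 (5.74 CPM), F2 for Entpd3 (4.25 CPM) and Ngfr (60.4 CPM), and M1 was low for Sox10 (186 CPM). Small intestine F3 was high for the summed lymphatic endothelial genes (777 CPM).

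For 12 of the genes named, the colon to small intestine difference in the myenteric plexus differed from that in the submucosal plexus by the interaction test in edgeR with Benjamini-Hochberg adjustment. The myenteric value was the higher one for Cldn4 (adjusted p = 0.00437), F2rl1 (0.00640), Cd55 (0.0191), Reln (0.0201), Fgl2 (0.0329) and Pitx1 (0.0439). Pitx1 was also called higher in submucosal colon (51.8 against 6.38 CPM, log2 fold change 3.03, edgeR adjusted p = 0.000795). No myenteric small intestine library had more than 3 counts of Pitx1. Its myenteric difference is known only as at least 9.72-fold, so the size of its difference between plexuses cannot be told. It was the lower one for Chrnb4 (adjusted p = 0.00214), Apod (0.00386), Ngfr (0.0400), Ntrk2 (0.0451), Cd4 (0.0468) and Stmn3 (0.0496). Of these, Apod, Chrnb4, Ngfr and Ntrk2 had fitted differences of opposite sign in the submucosal plexus, as had Cldn4 and Reln.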

How the results depend on the processing

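Of the 449 calls in untreated mice, the count stayed within 1.5 times with RLE size factors (443), no count filter (405), sex as a covariate (396) and the 2 groups alone (313), and moved with DESeq2 (987), the replicate block (246, of which 216 were among the 449) and, chosen after seeing the data, without colon F3 and small intestine M3 (254), with the bias-adjusted quasi-likelihood fit (853), in males only (10) and in females only (169). Leaving out 1 library gave 206 to 475. The named calls lost with the replicate block included those of Rspo2, Hoxc4, Kit, Lum, Slc18a3, Clps and Reg1. The replicate numbers of untreated libraries are only shared labels: same-numbered libraries had deviations that correlated at 0.091 to 0.113 (4 of 5 pairs over 0.1), and each of the 5 correlated best with its own number, a hint from the data and not the design. At 2 h (29 calls) DESeq2 gave 500, no filter 46, the replicate block 104 (same-numbered libraries at 0.0167 to 0.173, 2 of 4 pairs over 0.1, each of the 4 best with its own number, again only a hint), the 2 groups alone 46, and leaving out 1 library 0 to 51; the 0 came without small intestine M2 (edgeR, 1208 genes at an unadjusted p under 0.05, 272 calls by DESeq2). At 24 h (21 calls) DESeq2 gave 183, the replicate block, there the mouse, 6, the 2 groups alone 353, and leaving out 1 library 9 to 17. Region by plexus (168 calls) gave 577 with DESeq2, 141 with the replicate block and 97 to 246 with 1 library left out. Of 105 named genes called, 104 kept their direction in all alternatives that gave a value, 51 their call in every fit without 1 library, and Ccnb2, at 0 in every colon library but F3 and at least 16.7-fold higher by the bound, changed the sign of its fitted value, to -2.11 without both outlying libraries, 0 in males only, and -1.88 to 8.76 with 1 library left out. The library total differed by 98131 as means and by -56785.5 as medians, and the mitochondrial share by -5.18 points as means and by -5.58 as medians (exact permutation p = 0.0390). The causes were not tested. Depth limits genes with 3 or fewer counts in every library of a region, whose fitted values, Ccnb2 included, are no bounds.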
